A study of Homo sapiens with 1 sample.

Results

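The HOX genes of clusters A to D were described in the chromatin accessibility map of 786-O cells, with members taken as the protein-coding genes of the human annotation whose symbol is HOXA, HOXB, HOXC or HOXD followed by a number. This gave 39 of the 20033 protein-coding genes on the 24 primary chromosomes: 11 in HOXA, 10 in HOXB, 9 in HOXC and 9 in HOXD. 786-O is a line grown from a human clear cell renal cell carcinoma, and the cells carried an empty vector as the control for overexpression of DPF3a, which belongs to the SWI/SNF family of chromatin remodellers. ATAC-seq was used, an assay in which a transposase (Tn5) cuts and tags open DNA. The data were the peak list of 1 library without a replicate, and the DPF3a library was not analysed here, so the values describe this library, no groups were compared and no p-value is given.

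HOX genes encode homeodomain transcription factors that give cells their position along the body axis. The genes of each mammalian cluster point the same way, and their order from the 3′ to the 5′ end follows the order in which they are used from head to tail. Genes in the same place in different clusters form a paralog group, numbered from the 3′ end. In many tissues Polycomb complexes hold unused HOX genes in a compact state while Trithorax proteins keep used ones active, and retinoic acid, CTCF and the TALE partners of HOX proteins are known regulators of the clusters.

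A peak is an interval of enriched reads with a summit at its highest point. Its pileup is the number of reads or fragments stacked over the summit, and its fold is the pileup plus 1 divided by the genome-wide background plus 1. With a background pileup of 0.941, the lowest pileup in the list, 9, was a fold of 5.15 (exact Poisson 95% interval of the pileup, 2.64 to 9.32). All intervals of folds below are of this kind, and all intervals cover counting error only. There were 88615 summits on the primary chromosomes, and the total number of reads is unknown. Promoters were taken as the 1 kb before and the 100 bp after each annotated transcription start (TSS) of a gene, counting every transcript, and coordinates are those of hg38. As a check of the label, the renal markers PAX8, PAX2 and VIM had promoter peaks of fold 31.9, 22.7 and 47.9, CDH6 had none, and LHX1 also had none but lies in sequence that a second reference sequence repeats. None of the 7 markers of blood, liver, nerve, muscle and endothelial cells had one. PTPRC, 1 of these 7, also lies in such repeated sequence.

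The highest summits of HOXC and HOXD are shown first, as the 151 bases centred on each on the plus strand of hg38, because these peaks hold the strongest accessibility inside their clusters. Capitals mark a short motif found near the summit by its letters. The HOXC window, chr12:54036918-54037068, lies in an intron of HOXC4 and holds the AP-1 motif TGAGTCA on the minus strand. Its summit is also 861 bp upstream of an alternative HOXC4 TSS, so it is counted below as the HOXC4 promoter peak. The HOXD window, chr2:176104351-176104501, lies in an exon of HOXD11 and holds TGAGTCA on the minus strand near both ends.
HOXC4 intron: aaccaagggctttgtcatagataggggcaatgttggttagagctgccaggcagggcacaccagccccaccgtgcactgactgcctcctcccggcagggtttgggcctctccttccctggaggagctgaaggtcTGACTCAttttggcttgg
HOXD11 exon: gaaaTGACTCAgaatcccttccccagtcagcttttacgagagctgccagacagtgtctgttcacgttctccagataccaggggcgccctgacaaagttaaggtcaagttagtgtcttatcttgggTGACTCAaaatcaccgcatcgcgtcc

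A promoter peak was found at 22 of the 39 HOX genes, or 56.4% (exact Clopper-Pearson 95% interval, 39.6 to 72.2), beside 61.4% of all protein-coding genes. The interval includes the value of all genes, so the share of HOX genes was not distinguishable from it. With promoters of 1 kb to both sides of the TSS the shares were 74.4% and 65.7%, so which of them was higher depended on the window. By cluster, 7 of 11 HOXA genes had one, beside 64.3% of the protein-coding genes of chromosome 7. In HOXB 7 of 10 had one, beside 58.0% on chromosome 17, and in HOXC 6 of 9, beside 64.7% on chromosome 12. In HOXD 2 of 9 genes had a promoter peak (22.2%, 2.81 to 60.0), beside 69.4% on chromosome 2, and here the interval did not reach the value of the chromosome. With 1 kb to both sides 5 of the 9 HOXD genes had a promoter peak. With a peak score above 100, 3 HOXB and 3 HOXC genes kept one.

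HOXA had promoter peaks along the cluster. HOXA4 had a fold of 27.8 (21.0 to 36.2) and HOXA6 26.3 (19.6 to 34.5), at summits 267 and 270 bp upstream of a TSS. For HOXA6 this was an alternative TSS, and the promoter peak at its canonical TSS had 20.6 (14.8 to 28.0). HOXA5, a gene needed for lung development, had 18.0 (12.6 to 25.0) with its summit 11 bp upstream of the TSS. The counting intervals of these 3 genes overlapped. HOXA9, a gene known for its role in leukaemia, had 17.5 (12.2 to 24.4), also 11 bp upstream. HOXA10 had 12.4 (8.03 to 18.3) at an alternative TSS, and HOXA13, which shapes the limb ends and the genital tract, had 14.9 (10.1 to 21.4) at a summit shared with HOTTIP. The HOXA13 summit lay 184 bp beyond the end of the cluster. HOXA2, HOXA3, HOXA7 and HOXA11 had no summit in a promoter. The canonical TSS of HOXA2 was covered by a peak of fold 10.8 (6.81 to 16.4) and that of HOXA11 by one of 9.28 (5.62 to 14.5).

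HOXB promoters were mostly close to the lower limit of the list. HOXB2 and HOXB3 each had a fold of 5.67 (2.99 to 9.99), from a pileup of 10. HOXB4, known for its role in blood stem cells, and HOXB7 each had 6.70 (3.71 to 11.3). HOXB5 had 7.73 (4.46 to 12.6) and HOXB6 8.76 (5.23 to 13.9). The HOXB6 value is from an alternative TSS, with 5.67 (2.99 to 9.99) at its canonical one. The intervals of these 6 genes all overlap, so no order among them is given. HOXB9 stood apart at 25.2 (18.8 to 33.3), the one HOXB promoter above the median of promoter peaks on chromosome 17, which was 16.0. The HOXB3 summit, chr17:48604886-48605315, was also a promoter summit of HOXB6, the single summit that 2 HOX genes shared. HOXB1, HOXB8 and HOXB13 had no promoter peak. HOXB13, a gene of the prostate and distal colon, was the farthest of all HOX genes from a summit, at 25237 bp, with HOXB1 at 8370 bp.

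HOXC held the strongest and the weakest HOX promoter peaks. HOXC4 had 39.7 (31.4 to 49.5) from a pileup of 76, at a summit 861 bp upstream of an alternative TSS and 16842 bp upstream of the canonical one, the TSS of the transcript that the annotation marks as representative. The promoter of the canonical HOXC4 TSS held no summit. With 1 TSS per gene, a setting that here took another TSS than the canonical one, the HOXC4 fold was 13.9. HOXC9 and HOXC10 had 12.4 (8.03 to 18.3) each, at summits 7 and 4 bp upstream of an alternative TSS. At its canonical TSS HOXC10 had 11.9 (7.62 to 17.7). HOXC6 had 6.18 (3.34 to 10.7), HOXC13 5.67 (2.99 to 9.99) and HOXC8 5.15 (2.64 to 9.32), the last at the minimum pileup of the list. The HOXC4 interval met that of no other HOXC gene. HOXC13, a gene of hair and nails, had its summit 258 bp beyond the 5′ end of the cluster. HOXC5, HOXC11 and HOXC12 had none, and HOXC12 lay 16330 bp from its nearest summit.

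HOXD differed in where its peaks lay. HOXD1 had 23.7 (17.4 to 31.5) at a summit 253 bp upstream, which also lay in the promoters of the noncoding HAGLR and of MIR7704. HOXD3 had 14.4 (9.68 to 20.8) at an alternative TSS. HOXD4, HOXD8, HOXD9, HOXD10, HOXD11, HOXD12 and HOXD13 had no summit in a promoter. At 4 of these 7 genes, HOXD4, HOXD8, HOXD9 and HOXD11, the canonical TSS was nevertheless covered by a peak interval. For HOXD4 the summit lay 1068 bp downstream of the TSS with a fold of 12.4 (8.03 to 18.3). For HOXD9 it was 130 bp downstream of the TSS with a fold of 9.79 (6.01 to 15.2), and for HOXD11 it lay upstream of the canonical TSS and 210 bp downstream of an alternative one, with 32.5 (25.0 to 41.5). For HOXD8 it was 202 bp downstream of an alternative TSS with 16.5 (11.4 to 23.2). HOXD10, HOXD12 and HOXD13, the posterior genes of limb and genital development, had their canonical TSS under no peak.

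**Figure D1:**
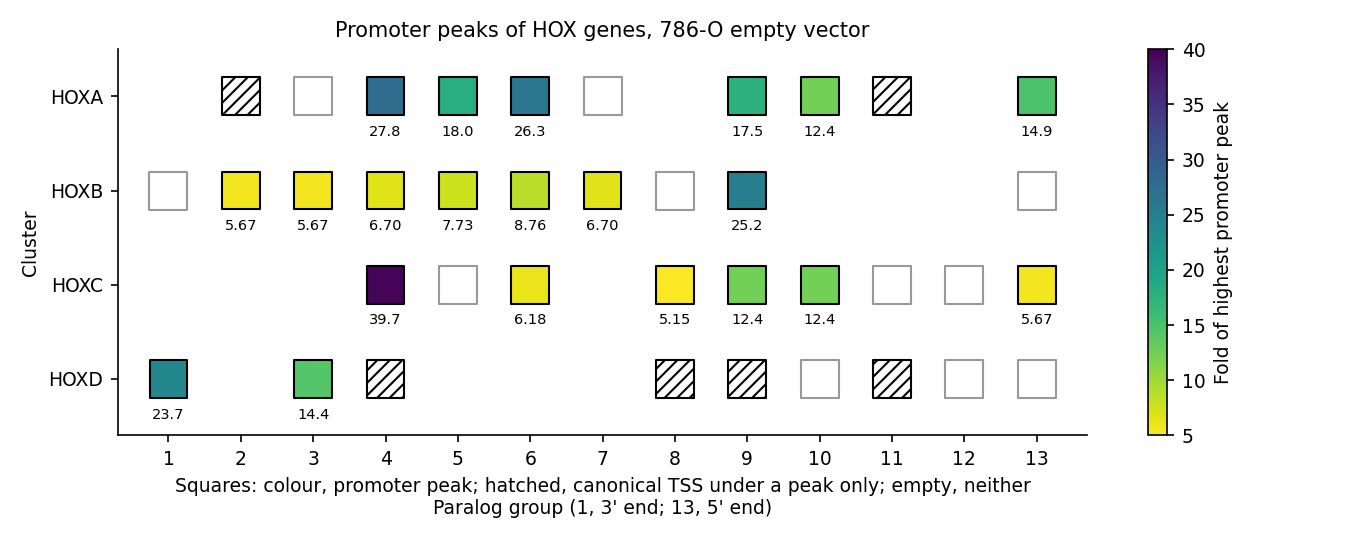
Promoter accessibility of HOX genes by cluster (vertical) and paralog group (horizontal). Coloured squares show the fold of the highest promoter peak, with its value beneath, hatched squares a canonical TSS covered by a peak without a promoter summit, and empty squares neither, while a place without a square has no gene or no value shown; HOXB squares are pale except HOXB9 at 25.2, and HOXD has 4 hatched squares.

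Counting coverage of the canonical TSS in place of a summit in the promoter gave another picture of the clusters. The canonical TSS lay under a peak interval at 20 of 39 HOX genes, or 51.3% (34.8 to 67.6), beside 57.8% of all protein-coding genes. HOXA then had 9 of 11, HOXB 3 of 10, HOXC 3 of 9 and HOXD 5 of 9. When the summit had to lie at the promoter of the canonical TSS, 15 of 39 HOX genes remained, or 38.5% (23.4 to 55.4), beside 52.2% of all genes. The 7 genes with a promoter peak at an alternative TSS and none at the canonical one were HOXA10, HOXB2, HOXB3, HOXC4, HOXC6, HOXC9 and HOXD3. HOX genes have long, nested transcripts, and the canonical HOXA3 TSS lies upstream of HOXA6, so an alternative TSS can lie within reach of a neighbour's promoter. All 22 best promoter summits lay upstream of the TSS they were assigned to. The promoter window favours this by construction, since it reaches 1 kb upstream but 100 bp downstream. The summits just outside the 100 bp downstream edge were those at 111 bp for HOXA4, 130 bp for HOXD9, 159 bp for HOXA10 with a fold of 29.4 (22.3 to 38.0), and 202 to 294 bp for HOXD8, HOXB8, HOXD11, HOXB2, HOXC9 and HOXC10.

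Across paralog groups, 5 of 8 genes of groups 1 to 3, 10 of 15 of groups 4 to 8 and 7 of 16 of groups 9 to 13 had a promoter peak. The intervals of these shares overlap (24.5 to 91.5, 38.4 to 88.2 and 19.8 to 70.1%), and no gradient along the axis was detectable. All of these intervals include the 61.4% of all protein-coding genes. Group 6 had a peak at all 3 members. Groups 11 and 12 had none at 3 and 2 members. Group 11 includes HOXA11 and HOXD11, known for their joint role in the branching of the developing kidney, and both had the canonical TSS under a peak, the peak of 9.28 for HOXA11 and that of 32.5 for HOXD11. Of the 17 genes without a promoter summit, 11 had a canonical TSS under no peak.

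In each cluster the median fold of the HOX promoters was below that of promoter peaks of the same chromosome. The units differ, since each HOX gene was counted by its highest promoter peak, while the chromosome medians took every promoter summit of any gene. The median fold of HOXA promoters was 18.0, beside 25.8 for all promoter peaks of chromosome 7, and 3 of 7 exceeded that value. For HOXB the median was 6.70 beside 16.0 on chromosome 17. HOXC had 9.28 beside 17.8 on chromosome 12, and HOXD 19.1 over its 2 genes beside 23.2 on chromosome 2. In each of HOXB, HOXC and HOXD 1 gene exceeded its chromosome's median. Over all clusters the median was 12.4, beside 19.6 for all promoter peaks, and 6 of 22 genes were above it. The chromosome medians themselves differed, the copy number of the chromosomes in these cells was not measured here, and its part in the folds was not tested. A pileup under 15 lay behind 8 of the 22 promoter peaks, 5 in HOXB and 3 in HOXC.

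Accessibility inside the clusters was dense rather than high. HOXA, chr7:27092993-27200091, held 31 summits in 107 kb, or 289 per Mb (exact Poisson 95% interval, 197 to 411), beside 35.6 per Mb for chromosome 7. Among the 29432 tiles of 100 kb that cover the sequenced genome, 2 were at or above this density. The tiles were not cleared of the clusters, and these 2 include a tile inside HOXA itself. Peak intervals covered 42.2 kb of HOXA, or 39.4% of its bases, beside 2.10% of the genome. The longest stretch of HOXA without a summit was 15.5 kb, from a summit in HOXA11 to the 5′ end of the cluster at HOXA13, and elsewhere in the cluster no 2 neighbouring summits were more than 6.09 kb apart. The median fold of its summits was 12.4, beside 10.8 for all peaks.

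The other clusters were less dense, though each was above its chromosome. HOXB, chr17:48528526-48728750, held 27 summits in 200 kb, 135 per Mb (88.9 to 196), beside 37.9 for chromosome 17, and 1.41% of tiles were at or above it. HOXC, chr12:53938831-54056030, held 14 in 117 kb, 119 per Mb (65.3 to 200), beside 31.2 for chromosome 12, with 2.81% of tiles at or above. HOXD, chr2:176092721-176190907, held 12 in 98.2 kb, 122 per Mb (63.2 to 213), beside 32.5 for chromosome 2, with 2.01% of tiles. The lower bound for HOXA, 197 per Mb, lay just above the upper bound for HOXB and within the intervals of HOXC and HOXD. The median tile had 20.0 per Mb and 28.0% of tiles had no summit. Genes and promoters are packed closely in the clusters, with 29.2% of their bases in promoters and 16.9% in exons outside them, and the part of this in the density was not tested.

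**Figure D2:**
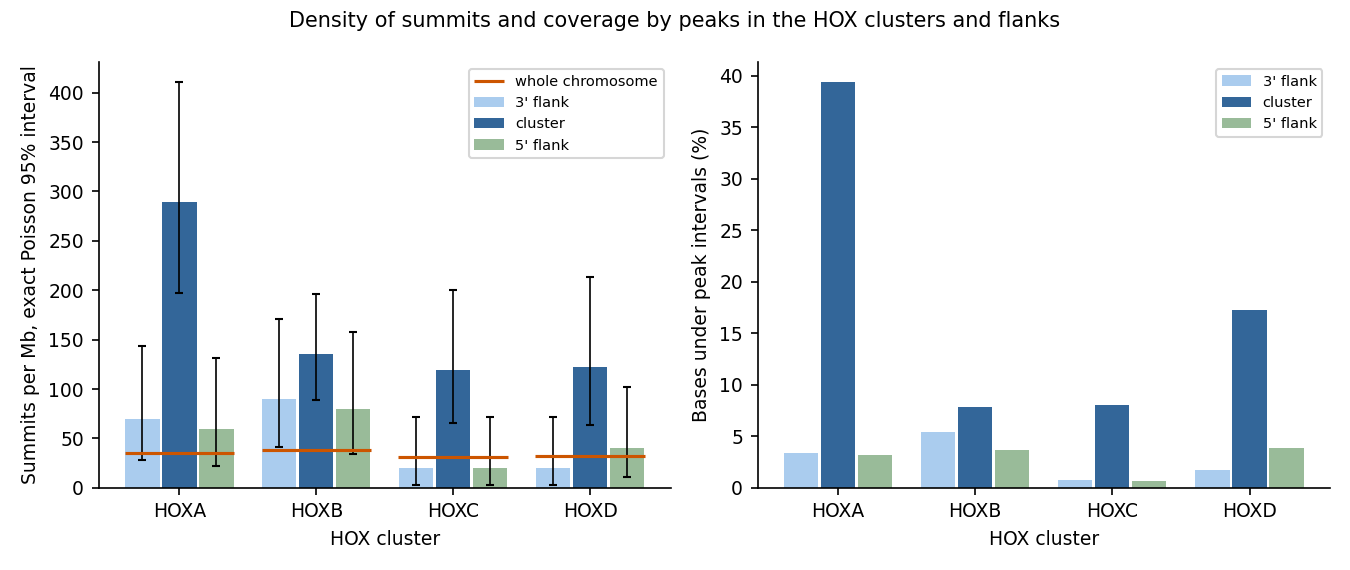
Summits per Mb (left, bars with exact Poisson 95% intervals) and the percent of bases under peak intervals (right) in each HOX cluster and in the 100 kb to either side; orange lines are whole chromosomes. HOXA reaches 289 per Mb and 39.4% of bases, and every flank is below its cluster.

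HOXB was not uniform. From HOXB1 to the end of the HOXB7 gene record, which reaches beyond HOXB9, it held 21 summits, 200 per Mb (124 to 306). The remaining 91.2 kb towards HOXB13 held 6, or 65.8 per Mb (24.1 to 143), and the longest empty stretch of any cluster, 46.9 kb, reached from the last summit over HOXB13 to the cluster's end. In HOXC the longest empty stretch was 35.9 kb at the 5′ end, over HOXC13 and HOXC12 up to a summit in HOXC11. In HOXD it was 21.9 kb, between the summit in HOXD4 and a summit within HAGLR. The flanks were sparser, with 40 summits in all over 8 flanks: 7 on the 3′ and 6 on the 5′ side of HOXA, 9 and 8 at HOXB, 2 and 2 at HOXC, and 2 and 4 at HOXD. Of these, the summits of HOXA13 and HOXC13 lay at the very edge of their clusters.

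**Figure D3:**
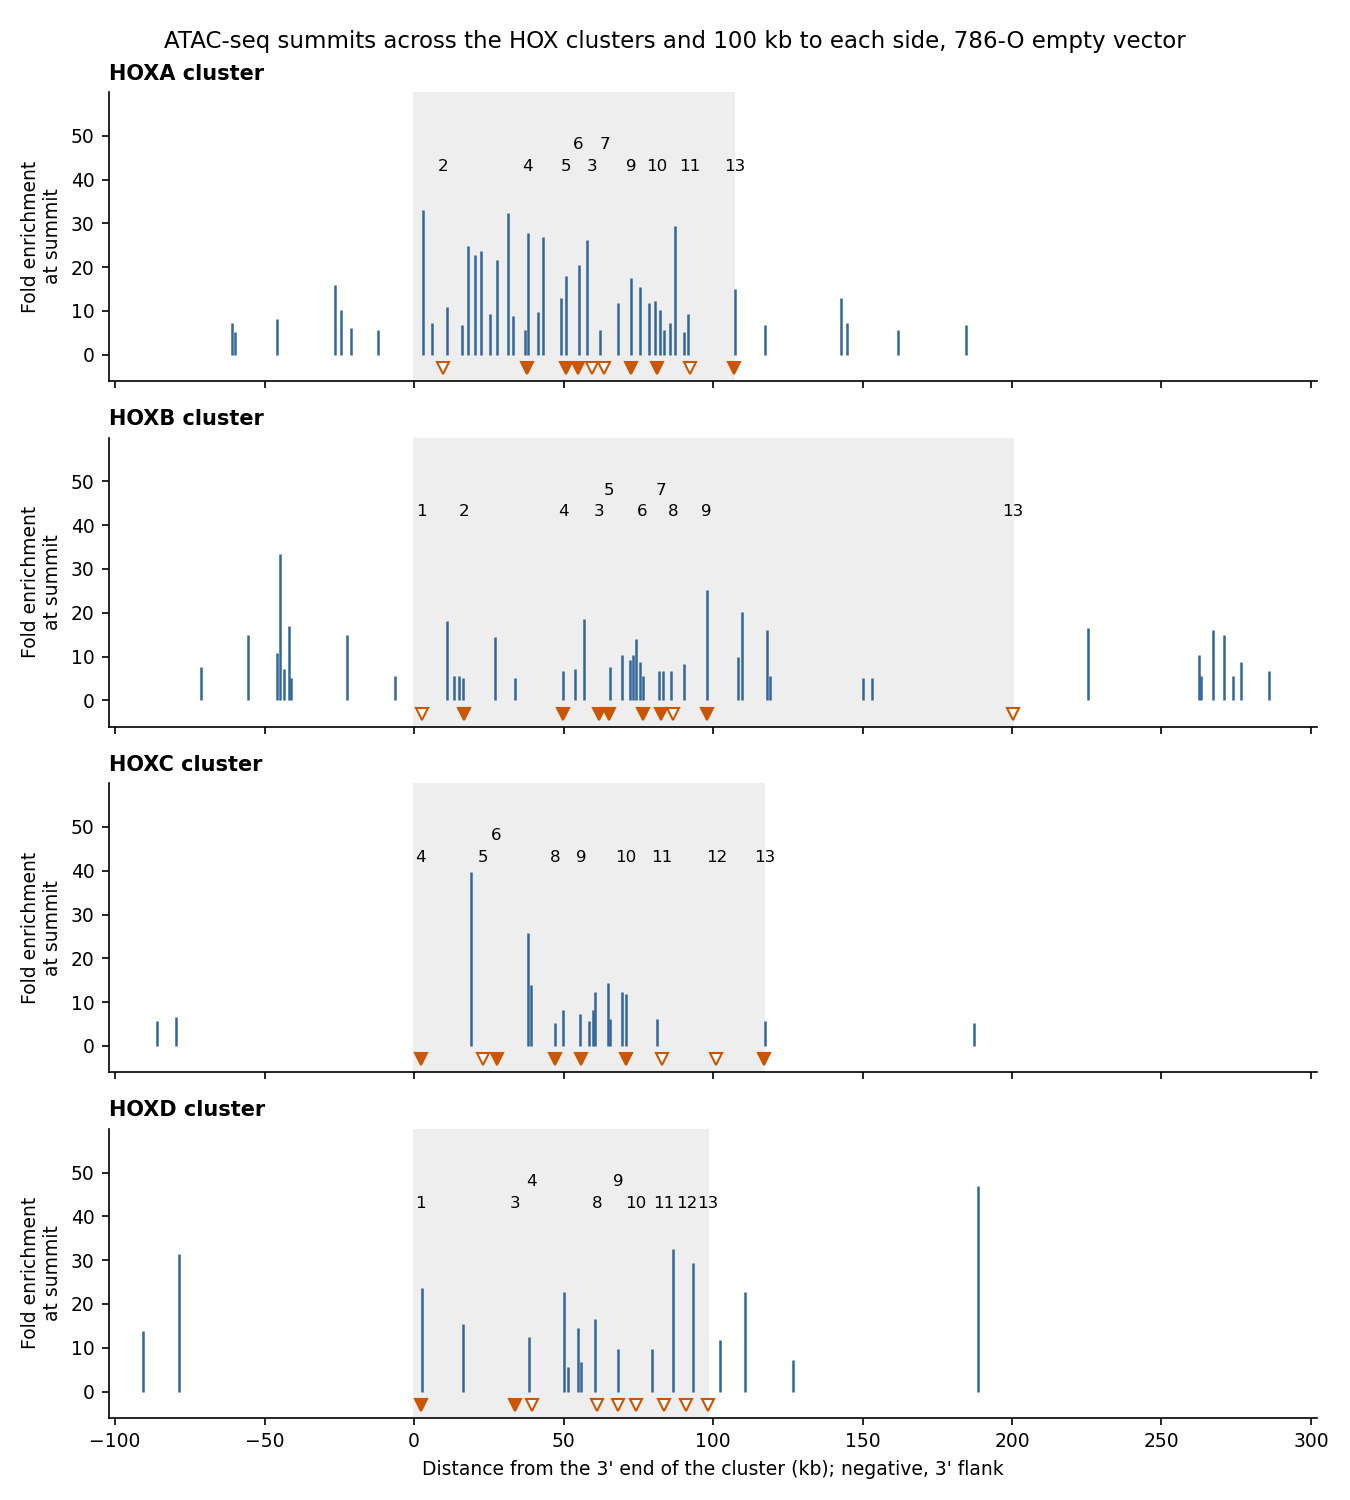
Fold at each summit (blue lines) against distance from the 3′ end of the cluster in kb, with the cluster shaded and 100 kb to each side. Triangles mark canonical TSSs of the genes described, labelled by paralog number and filled where the gene had a promoter peak at any TSS; the longest stretches without a summit are 15.5 kb in HOXA, 46.9 kb at the HOXB13 end of HOXB, 35.9 kb at the 5′ end of HOXC and 21.9 kb on the 3′ side of HOXD.

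Many peaks of HOXA and HOXD were broad. The median width was 1082 bp in HOXA and 1172 bp in HOXD, beside 525 bp in HOXB, 540 bp in HOXC and 522 bp for all peaks. Of the 84 cluster peaks 9 were at least 2 kb wide, 6 in HOXA and 3 in HOXD, beside 2.89% of all peaks. The broadest was the HOXD11 peak, chr2:176103886-176107550, at 3665 bp, which runs over much of the gene. Other broad peaks lay over HOXA9 at 3184 bp, over HOXD8 at 2549 bp and over HOXD1 at 2187 bp. A broad peak at chr7:27122174-27125388, 3215 bp with a fold of 32.5 (25.0 to 41.5), lay in an exon inside the HOXA3 gene record.

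By place, 40 of the 84 cluster summits were in a promoter of any gene (47.6%), 15 in an exon (17.9%), 25 in an intron (29.8%) and 4 between genes (4.76%). All summits were distributed as 19.4%, 5.29%, 48.6% and 26.7%. HOXD had 2 of 12 summits in promoters and 7 in exons. HOXC had 11 of 14 in promoters and none in exons. In the flanks of HOXD, the highest peaks were at promoters of unrelated neighbours, 46.9 (37.8 to 57.5) at LNPK and 31.4 (24.1 to 40.3) at MTX2. The highest intergenic flank peak was chr17:48482994-48484480, 3′ of HOXB, at 33.5 (25.9 to 42.6), which exceeded every summit inside HOXB in fold. It was the highest of a group of 5 summits between 48482264 and 48487501, with folds from 5.15 to 33.5. The highest flank peaks of HOXA were 16.0 (10.9 to 22.6) on the 3′ side and the HOXA13 summit on the 5′ side, and those of HOXC were 6.70 (3.71 to 11.3) on the 3′ side and the HOXC13 summit on the 5′ side.

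The clusters carry copies of retinoic acid response elements, direct repeats of a hexamer spaced by 5 bases (DR5). Searched by consensus on both strands, 11 DR5 matches lay in the clusters and 10 in the flanks, and 3 and 2 of them lay under a peak. Genome-wide 3.17% of 25973 matches lay under a peak. Since the clusters hold far more peak bases than the genome, 39.4% of HOXA for example, the counts are given as a description. Matches were at 21.0 per Mb in the clusters and at 8.84 per Mb in the genome. Of the 21 matches, 7 are shown, in groups that lie at corresponding places in different clusters, because their elements agree at 15 or more of 17 bases and some copies were under a peak and others not. In all DR5 lines the sequence is on the strand of the HOX genes and capitals mark the repeat with its spacer.

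The first group lies inside the long gene records of paralog group 3. The HOXA copy, chr7:27113502-27113562 inside the HOXA3 gene record, and the HOXB copy, chr17:48555408-48555468 inside HOXB3, were identical over all 17 bases of the element and over 40 of 61 bases of the window. Both lay under a peak, the HOXA copy at a fold of 22.7 (16.6 to 30.4) and the HOXB copy at 14.4 (9.68 to 20.8), with overlapping intervals. The HOXD copy, chr2:176165891-176165951 inside HOXD3, matched them at 16 of 17 bases. It lay under no peak, 8386 bp from the nearest one.
HOXA copy: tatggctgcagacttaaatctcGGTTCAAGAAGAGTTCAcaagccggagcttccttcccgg
HOXB copy: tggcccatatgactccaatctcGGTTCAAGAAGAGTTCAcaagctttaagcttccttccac
HOXD copy: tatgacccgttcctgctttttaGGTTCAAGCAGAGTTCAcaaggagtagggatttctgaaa

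The second group lies upstream of the group 4 genes in all 4 clusters. The HOXA copy, chr7:27133882-27133942, lay under a peak of fold 9.79 (6.01 to 15.2), 3155 bp upstream of HOXA4. The HOXB copy, of which chr17:48582564-48582592 is shown, lay 4228 bp upstream of HOXB4 and 30 bp outside a peak of fold 7.21 (4.08 to 12.0). The HOXC copy, chr12:54049309-54049369, and the HOXD copy, chr2:176149041-176149101, had identical elements and matched the HOXA element at 15 of 17 bases. They lay 11978 and 2154 bp from a peak. So of the 4 copies, the HOXA copy was covered and the HOXB, HOXC and HOXD copies were not, the HOXB copy being the nearest of these 3 to a peak.
HOXA4 upstream: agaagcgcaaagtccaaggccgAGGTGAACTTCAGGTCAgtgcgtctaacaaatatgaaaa
HOXB4 upstream: ggagagAGGTGAACCGCAGGTCAcggcgt
HOXC4 upstream: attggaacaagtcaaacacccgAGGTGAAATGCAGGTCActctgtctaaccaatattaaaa
HOXD4 upstream: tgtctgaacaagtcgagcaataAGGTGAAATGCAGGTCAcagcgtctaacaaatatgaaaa

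A further copy lies 3′ of HOXB. It is 8729 bp from HOXB1, at chr17:48522274-48522290, and lay under a peak at the second lowest fold of the list, 5.67 (2.99 to 9.99). HOXB1 itself had no promoter peak.

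CTCF binds boundaries within HOX clusters and pairs distant sites into loops. A CTCF consensus match lay within 150 bp of 7 of 84 cluster summits, or 8.33% (3.42 to 16.4), beside 7.38% of all summits. HOXA had 2, HOXB 4, HOXC none and HOXD 1. All 7 lay between the canonical TSSs of neighbouring HOX genes, but most lay inside a HOX gene record. Only the HOXA7 to HOXA9 and the HOXD12 to HOXD13 matches lay outside these records. The match between HOXA9 and HOXA10 lay inside the records of both. The peaks of 5.67 and 7.73 given below were promoter peaks of HOXB2 and HOXB5. Of the 7, 4 are shown, on the strand of the HOX genes with the match in capitals. These 4 lie at chr7:27161128-27161158 under a peak of 11.9, at chr17:48594031-48594061 under 7.73, at chr17:48618736-48618766 under 8.24 and at chr2:176097749-176097779 under 29.4 (22.3 to 38.0). Placed by canonical TSS, the other 3 lay under peaks of 11.9 (HOXA9 to HOXA10), 5.67 (HOXB1 to HOXB2) and 5.15 (HOXB2 to HOXB4). The HOXD peak was the highest of the 7 and lay between HOXD12 and HOXD13, neither of which had a promoter peak.
HOXA7 to HOXA9: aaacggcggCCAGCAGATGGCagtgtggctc
HOXB5 to HOXB6: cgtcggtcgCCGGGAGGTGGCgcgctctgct
HOXB8 to HOXB9: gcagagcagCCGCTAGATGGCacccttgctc
HOXD12 to HOXD13: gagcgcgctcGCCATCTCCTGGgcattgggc

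Other motifs were counted by their letters, on either strand and up to 150 bp from the summit, and also separately for summits in promoters and elsewhere because base composition differs between them. A match is a description and not a binding site, and motifs may overlap each other. The AP-1 motif TGAGTCA was near 8 of 84 cluster summits (9.52%, 4.20 to 17.9), beside 30.6% of all summits, and outside promoters near 13.6% (5.17 to 27.4) beside 34.8%. The TEAD motif GGAATG was near 8.33% (3.42 to 16.4), beside 22.8%. Both intervals lay below the genome value, although neighbouring summits share a cluster and are not independent, and the highest summits of HOXC and HOXD did have AP-1 matches. GGGCGG, the motif of SP and KLF factors, was near 39.3% (28.8 to 50.5), beside 17.8%. At promoter summits its share was 50.0% beside 55.0%, and outside promoters 29.5% (16.8 to 45.2) beside 8.79%. TGATNNAT, the pairing motif of HOX and PBX proteins, was near 11 of 84 cluster summits, or 13.1% (6.72 to 22.2), beside 14.5% of all summits, a value inside the interval. By place it was near 9 of the 40 promoter summits, or 22.5% (10.8 to 38.5), beside 6.26% of all promoter summits. They included the summits of HOXA4, HOXA5, HOXB9 and HOXC9, and a second, lower promoter summit of HOXB2 with a fold of 5.15. Outside promoters it was near 2 of 44, or 4.55% (0.555 to 15.5), beside 16.4%. The homeodomain core TAATTA was near 5.95% beside 5.55%, and the hypoxia response core ACGTG near 23.8% (15.2 to 34.3) beside 18.2%. Neither was distinguishable from all summits.

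**Figure D4:**
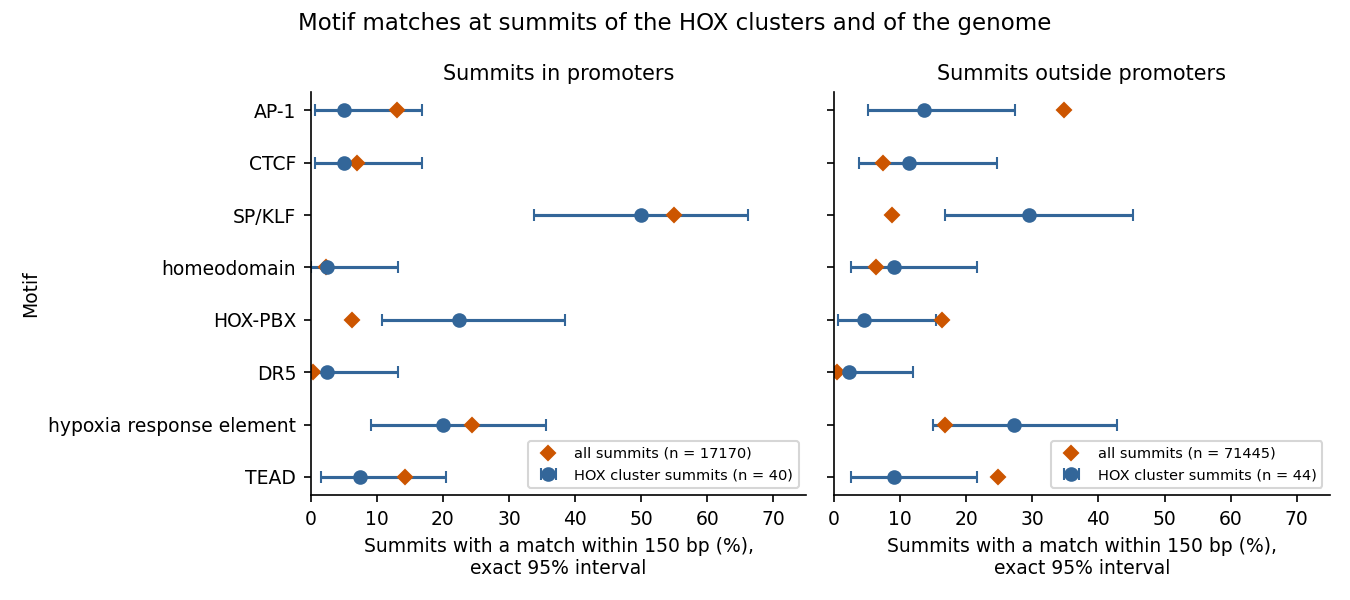
Percent of summits with a motif match within 150 bp, in promoters (left) and outside them (right), for HOX cluster summits (blue, exact 95% intervals) and all summits (orange). The HOX-PBX motif in promoters (22.5% beside 6.26%) and SP/KLF outside promoters (29.5% beside 8.79%) lie above the genome value, and AP-1 and TEAD outside promoters lie below it.

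The canonical promoters of HOX genes with a summit in them had a median GC content of 57.1%, beside 54.8% for those without and 54.6% for all protein-coding genes. The median ratio of observed to expected CpG was 0.670 with and 0.573 without, beside 0.632 for all genes. The GC ranges overlap widely, from 48.9 to 64.7% and from 44.4 to 64.6%. Split by a promoter peak at any TSS, the GC medians were 55.8% with and 56.5% without, and the CpG ratios 0.599 and 0.593, so the direction for GC depended on the TSS. HOXC promoters had the lowest median CpG ratio, 0.420, and HOXD promoters the highest, 0.711, while HOXD had the fewest promoter peaks.

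The clusters also hold noncoding genes. Of 18 HOX antisense and long noncoding RNA genes 11 had a promoter peak, or 61.1% (35.7 to 82.7), beside 21.9% of all lncRNA genes. HAGLR had a fold of 23.7, at the HOXD1 summit. HOXA-AS2, which runs from the HOXA3 region, also had 23.7 (17.4 to 31.5). HOXA10-AS had 15.5 (10.5 to 22.0), and HOTTIP, the noncoding RNA at the 5′ tip of HOXA, had 14.9. HOXB-AS3 had 10.3, HOXA11-AS 9.28, HOXC-AS2 8.24 and HOXC-AS1 7.21. HOTAIR, the noncoding RNA between HOXC11 and HOXC12 known for its tie to Polycomb, had none, with its nearest summit 197 bp away at 6.18. Several of these genes shared a summit with a HOX gene (among them HOTTIP, HOXB-AS1, HOXC-AS3 and HAGLR), so they are not separate observations from those genes.

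Of 6 HOX cluster microRNA genes 1 had a peak in its promoter window, MIR196A2 at 14.4 between HOXC9 and HOXC10. The share of all microRNA genes was not counted, so this count is a description. The windows were set from the start of the annotated microRNA gene, and starts of longer transcripts that may contain it were not considered. MIR196B, MIR10A, MIR10B, MIR615 and MIR196A1 had their nearest summits at 1037, 1549, 2315, 3043 and 4148 bp. The mature sequences are shown because the miR-196 genes, which are known to target HOX transcripts, share a seed (bases 2 to 8, in capitals). The count depends on the window, since MIR196B itself lay under a peak of fold 15.5 whose summit was 1037 bp away, while MIR196A2 lay outside the peak in its promoter window. The sequences are from RefSeq, build GRCh38.p14. MIR196A1 and MIR196A2 give the same mature sequence, so an RNA of that sequence could come from either.
hsa-miR-196a-5p: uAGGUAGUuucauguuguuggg
hsa-miR-196b-5p: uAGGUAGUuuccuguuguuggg
hsa-miR-10a-5p: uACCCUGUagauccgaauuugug
hsa-miR-615-3p: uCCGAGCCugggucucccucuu

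Outside the clusters, genes that act with or on HOX genes were counted beside the 61.4% of all protein-coding genes with a promoter peak. Promoter peaks were found at 77.8% (40.0 to 97.2) of TALE, 86.7% (59.5 to 98.3) of Polycomb and 100% (66.4 to 100) of Trithorax and H3K27 demethylase genes, and the first and second of these intervals include the value of all genes. Of the 9 TALE genes, whose products bind DNA together with HOX proteins, 7 had a promoter peak, among them PBX3 at 56.2 (46.2 to 67.7), PKNOX1 at 51.5, MEIS1 at 37.1, PBX4 at 28.3, MEIS2 at 17.5 and PKNOX2 at 5.67. MEIS3 and PBX2 had none. Of 15 Polycomb genes 13 had one, among them EZH2, the H3K27 methyltransferase, at 49.0 (39.7 to 59.8), PHC2 at 51.5 and SUZ12 at 9.28. All 9 Trithorax and H3K27 demethylase genes had one, from 10.3 at WDR5 to 40.2 at MEN1. PCGF2 and RING1 were the Polycomb genes without. At PBX2, PCGF2 and RING1, but at none of the 39 HOX genes, another sequence of the reference repeats the region at 95% identity or more, and the authors removed reads of low mapping quality. The part of this in their missing peaks was not tested.

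Against other homeobox genes of the same ANTP class, HOX genes more often had a promoter peak by count at any TSS. Of 50 such genes 16 had a promoter peak, or 32.0% (19.5 to 46.7), beside 61.4% of all protein-coding genes, which lies above this interval. The interval overlaps that of the HOX genes. At the canonical TSS the HOX share was 38.5%, and the other ANTP-class genes were not counted there. DLX1 had the highest at 38.6 (30.5 to 48.4), close to HOXC4, and NKX3-2, LBX2 and MSX1 had 21.1, 19.1 and 18.6. EVX1 and EVX2, the homeobox genes that border HOXA and HOXD, had none, with summits 4831 and 3852 bp away. Of 17 genes next to the clusters 11 had a promoter peak, or 64.7% (38.3 to 85.8), which includes the 61.4% of all protein-coding genes. Among them were HIBADH at 71.1 (59.8 to 84.0), the highest, and SKAP2 at 50.5 (41.0 to 61.5), on the sides of HOXA. Both HIBADH and SKAP2 were above every HOX promoter in fold. PRAC1 and PRAC2, beside HOXB13, had none in their promoters and their nearest summits at 31469 and 30295 bp.

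**Figure D5:**
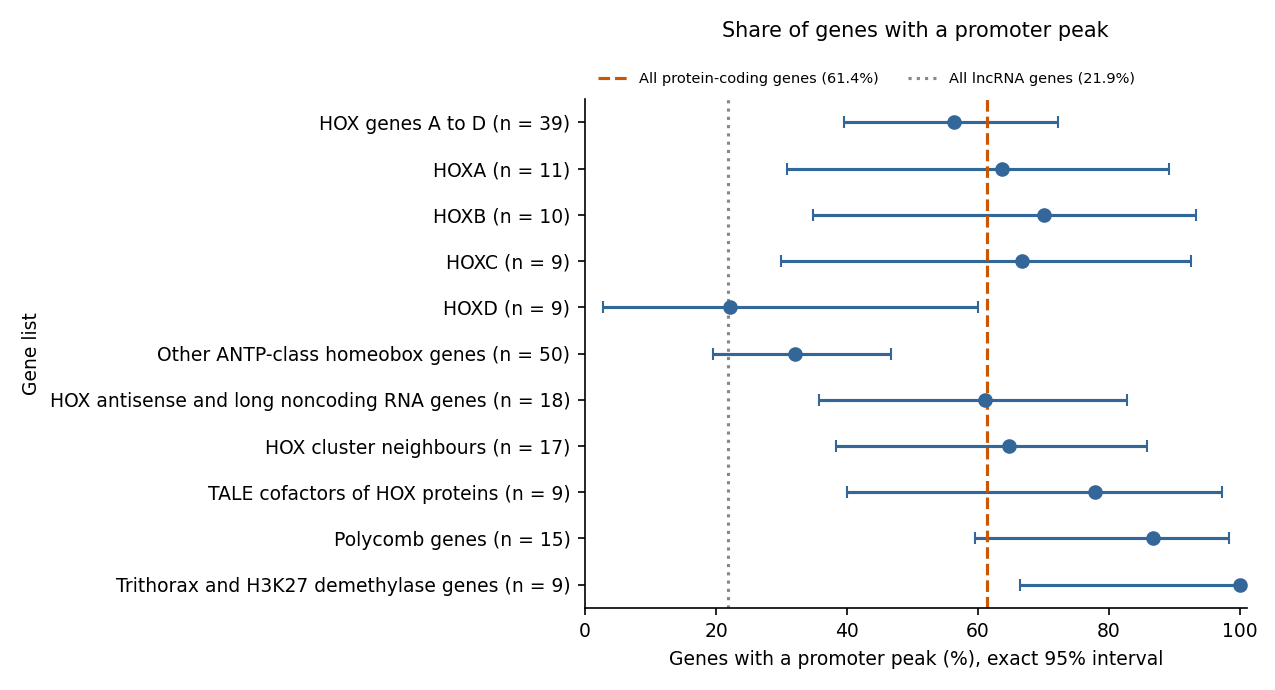
Percent of genes with a promoter peak in 11 gene lists, with exact 95% intervals and the number of genes; the lines mark all protein-coding (61.4%) and all lncRNA genes (21.9%). Of the lists plotted HOXD lies lowest at 22.2%, other ANTP-class homeobox genes at 32.0%, and Trithorax genes at 100%.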

How the data were processed

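ATAC-seq of 1 library of 786-O cells with an empty vector was analysed from its deposited peak list. The group is that of the label, while the names of the peaks in the file carry a wild-type tag. Per the study's methods, the authors trimmed reads with fastp, used Bowtie2 for alignment to hg38 (2.3.4.3 in the submitters' processing notes), removed mitochondrial reads, reads of low mapping quality and duplicates (sambamba), and called peaks with MACS2 (2.2.6) against a genome-wide background; a shift to the Tn5 cutting site is not stated. The deposited ratio is the fold enrichment at the summit, the deposited score and the deposited −log10 p-value and q-value follow from the same pileup, and the lowest deposited score was 52. Depth is known only as pileup, which was recovered from the fold to within 1.83e-05 of a whole number.

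Promoters and genes came from GENCODE release 44. The rule for named genes took every HOX gene, the highest peak and longest gap of each cluster and the members of fixed lists; some of these genes and sequences are not reported here. The members, lists and motifs were chosen with earlier results of these data known. Shares carry exact binomial and densities exact Poisson intervals; no test was made on 1 library. Another minimum score, promoter width, overlap rule, TSS choice and cluster end were tried. Second copies were sought among 430 other reference sequences with minimap2 2.31-r1302, over at least 10 kb at 95% identity. Calculations ran in Python 3.11.15 (numpy 2.4.6; pandas 2.3.3; scipy 1.17.1; plots by matplotlib 3.10.9), and functions were tested on simulated data.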

Additional observations from a re-analysis of the deposited data

How the results depend on the processing

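The share of HOX genes with a promoter peak, 56.4%, was 38.5% with a deposited score above 100 and 33.3% above 200, 74.4% with promoters of 1 kb and 84.6% of 2.5 kb to both sides, 76.9% where the peak interval overlapped the promoter and 38.5% at the canonical TSS. All protein-coding genes moved less, to 57.5, 52.0, 65.7, 70.3, 65.7 and 52.2%, so the HOX genes were below them as reported, with a higher score and at the canonical TSS, and above them with wider promoters or overlap. They were also above them with 1 TSS per gene (46.2 beside 42.3%) and with a TSS under a peak interval (64.1 beside 62.7%). HOXB fell from 7 genes to 3 (score above 100) and 1 (above 200), and HOXC from 6 to 3 in both cases and at the canonical TSS. HOXA rose to 11 at 2.5 kb. HOXD rose from 2 to 5 (1 kb), 7 (2.5 kb) and 6 (overlap) and had 1 at the canonical TSS. With a TSS under a peak interval, an alternative chosen after seeing the data, HOXB had 4 and HOXD 6. The density of HOXA was 168 per Mb with a score above 200, that of HOXB 69.9 above 100, 35.0 above 200 and 200 without HOXB13, and that of HOXC 59.7 above 200. A higher score removes low peaks by construction, and a wider window adds summits; other causes were not tested. Of the promoter folds of single genes, 132 values stayed within their counting interval and 13 moved, at most to 25.8 for HOXC6, 29.4 for HOXA10 and 13.9 for HOXC4. Genes that lost their promoter peak under a setting are not in these counts. A higher score can only keep or drop a gene's highest peak, so those values stayed the same by construction. No paired analysis was possible because the data held 1 library. Peaks with a pileup under 9 are not in the list, so genes without a peak may be accessible below that depth.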
